A study of Mus musculus with 4 samples.

Results

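The γδ T cells of the inflamed mouse colon are described here, 293 of 43432 cells that passed the filters on cells. A cell was kept if it had at least 200 genes detected and under 20% mitochondrial unique molecular identifiers (UMIs, each the tag of 1 captured transcript molecule). It was taken as a γδ T cell if it held at least 3 UMIs of Cd3e, Cd3d and Cd3g together, which encode the CD3 chains that carry every T cell receptor to the surface, and at least 2 UMIs of Trdc, the constant gene of the δ chain. It also had to hold 0 UMIs of Cd4, of Foxp3, and of 6 genes of other lineages, namely Ngp and Csf3r of neutrophils, Csf1r and C1qa of monocytes and macrophages, and Cd79a and Ms4a1 of B cells. Samples 1 to 4 held 44, 151, 29 and 69 such cells. The cells were thus chosen by the measured UMIs of these genes, whose own levels in the members are a description and support nothing.

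CD45+ leukocytes, the immune cells of the tissue, were selected on magnetic beads from colonic lamina propria of C57BL/6 mice and profiled by droplet single-cell RNA sequencing (10x Genomics). All 4 samples came from mice with colitis. They drank water with 2% dextran sulfate sodium (DSS), a chemical that damages the lining of the colon, over 7 days, and the colon was collected on day 8. The study used AhR-null mice (B6.129-Ahr tm1Bra/J, a germline deletion of the aryl hydrocarbon receptor) and wild-type littermates, 3 mice of a group mixed into each sample, but the sample labels do not say which genotype a sample holds, so no comparison of genotypes was made. The age is 10 weeks in the sample labels and 8 weeks in a figure legend of the publication. There was no untreated sample, a sample is a mixture whose mice cannot be told apart, and cells of 1 sample are not replicates. Values are therefore given for each of the 4 samples, with no test between them. Median depth per member was 8644, 5876, 7011 and 7505 UMIs in samples 1 to 4, and all members of a sample together held 442991, 1053506, 255908 and 643724 UMIs. Levels are CPM, the UMIs of a gene per 1000000 UMIs of a sample's members added together, with exact Poisson 95% intervals. Shares of cells carry exact (Clopper-Pearson) 95% intervals. These intervals cover counting error only, not the spread between mice. Of the 293 members, 2 carried a cell barcode that another library also held, and in 0 of these was that other cell a member.

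γδ T cells carry a receptor built from a γ and a δ chain in place of the α and β chains of most T cells, and many of them settle in barrier tissues early in life. In the mouse, some are programmed in the thymus to make interleukin 17 (IL-17) when they meet IL-23 and IL-1, while those within the gut epithelium are known for granzymes, chemokines and the CD8α chain. AhR, a receptor for dietary and microbial compounds, is known to be needed for the upkeep of intraepithelial γδ cells and to be expressed in IL-17-producing ones.

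The label was checked with the γ constant genes, which the rule did not use. UMIs of at least 1 Tcrg-C gene were found in 81.8%, 84.1%, 72.4% and 88.4% of the members of samples 1 to 4. The same measure was 1.85%, 33.8%, 37.0% and 47.3% in CD8 T cells and 1.59%, 10.1%, 5.33% and 11.2% in CD4 T cells of the same samples, both gated with 0 Trdc UMIs, and 0.567%, 1.93%, 1.15% and 0.755% in B cells. γ constant transcripts were thus found in more of the members than of any other gate, but were not rare in the CD8 T cells of samples 2 to 4. Tcrg-C1 alone (ENSMUSG00000076749, chr13:19214103-19217024, + strand of GRCm38) was found in 65.9%, 65.6%, 65.5% and 79.7%. Its share was 0%, 6.90%, 1.37% and 6.59% in CD8 T cells and 0.794%, 5.36%, 3.33% and 5.62% in CD4 T cells. In B cells, which do not transcribe the gene and so show the share that free RNA gives, it was 0.378%, 1.02%, 0.766% and 0.755% at a median of 5405, 4194, 5564 and 4749 UMIs per cell. Tcrg-C2 separated the gates less, at 34.1%, 33.8%, 20.7% and 30.4% of members and 1.85%, 22.8%, 30.1% and 40.7% of CD8 T cells. Exon 1 of Tcrg-C1, Tcrg-C2 and Tcrg-C3 is 96.06% to 97.27% identical over 330 bases, so the split of UMIs among these genes is uncertain. Tcrg-C3 was listed at 0 in all 4 samples.

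Transcripts of the αβ receptor were present too. Trbc1, a β constant gene, was found in 65.9%, 74.8%, 62.1% and 66.7% of members, Trbc2 in 95.5%, 90.1%, 79.3% and 78.3%, and Trac, the α constant gene, in 34.1%, 41.1%, 20.7% and 26.1%. Cd8b1, the CD8β chain of αβ CD8 T cells, was found in 0%, 3.97%, 6.90% and 5.80%. Trac was found in 72.2%, 73.1%, 78.1% and 69.2% of CD8 T cells and in 1.61%, 4.02%, 1.53% and 3.40% of B cells. The 3 αβ constant genes together were at 1133, 1318, 723 and 771 CPM in members, 1832, 1536, 1120 and 1291 CPM in CD8 T cells and 17, 39.2, 31.6 and 32.2 CPM in B cells. The members' level was thus far above that of free RNA and below that of CD8 T cells in each sample. Members without any UMI of Trac or Cd8b1 numbered 29, 87, 22 and 51, and those without any of Trac, Trbc1, Trbc2 and Cd8b1 numbered 1, 3, 2 and 6. At the edge of the rule, 73 members held exactly 2 Trdc UMIs, with a Tcrg-C UMI in 72.6% of them and a Trac UMI in 34.2%. Of the 77 cells that held 1 Trdc UMI and otherwise met the rule, 76.6% had a Tcrg-C UMI and 51.9% a Trac UMI. At the other edge, 10 of 15 members with 3 CD3 UMIs had a Tcrg-C UMI, against 9 of 16 cells with 2. Whether members with αβ transcripts were αβ T cells was not tested.

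The variable segments that the members used are shown first, because 2 of them form a receptor known from IL-17-producing γδ T cells of the mouse, that of Tcrg-V6 joined with Trdv4. The last 60 coding bases of each segment, read from GENCODE release M21 on GRCm38, run up to the point of joining, and the capitals mark the last TGT, the codon of the conserved cysteine. Trdv4 lies on the + strand at chr14:54075456-54075515 for the stretch shown, and Tcrg-V6 on the + strand at chr13:19190870-19190929.
Trdv4: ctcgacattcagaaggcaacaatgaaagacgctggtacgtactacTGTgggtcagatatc
Tcrg-V6: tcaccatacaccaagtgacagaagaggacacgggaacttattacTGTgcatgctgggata
The next pair shows why the γ variable gene with the most UMIs can be named only with doubt. Trgv2, on the - strand at chr13:19336573-19336632, and Tcrg-V1, on the + strand at chr13:19340395-19340454, matched at 57 of 60 bases, and the capitals mark the 3 bases that differ. Tcrg-V3 was identical to Tcrg-V1 over this stretch.
Trgv2: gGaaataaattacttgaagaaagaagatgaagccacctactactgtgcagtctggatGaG
Tcrg-V1: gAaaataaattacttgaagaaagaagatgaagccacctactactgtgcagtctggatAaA
A UMI of this group therefore names the group more firmly than the gene.

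Trdv4 (ENSMUSG00000076867) held 137 of the 155 UMIs that fell on δ variable genes, with 33, 21, 24 and 59 UMIs in samples 1 to 4. Its level was 74.5 (51.3 to 105), 19.9 (12.3 to 30.5), 93.8 (60.1 to 139.5) and 91.7 (69.8 to 118) CPM. The level of sample 2 lay below the intervals of the other 3 samples, which overlapped each other. A Trdv4 UMI was found in 29.5%, 8.61%, 48.3% and 43.5% of members, and in 6.82%, 1.99%, 10.3% and 10.1% once every member had been thinned to 1000 UMIs, a depth that all 293 reached. In CD8 T cells it was found in 1.85%, 0%, 1.37% and 0% and in CD4 T cells in 0.794%, 0%, 0% and 0%.

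The γ variable genes gave 25, 44, 5 and 33 UMIs, 107 in all, of which Trgv2 held 58. By sample, Trgv2 held 60%, 70.5%, 20% and 33.3% of them, with intervals of 38.7% to 78.9%, 54.8% to 83.2%, 0.505% to 71.6% and 18.0% to 51.8%. Tcrg-V6 held 3, 2, 4 and 11 UMIs, and 0 in CD8 T cells of each sample. The Trgv2 level was 33.9, 29.4, 3.91 and 17.1 CPM in members, 0, 22.7, 29.8 and 38.6 CPM in CD8 T cells and 0, 8.13, 1.82 and 5.97 CPM in CD4 T cells, so CD8 T cells held more of it than the members in samples 3 and 4. The interval of sample 2 for Trgv2 did not overlap that of sample 4, and the 5 UMIs of sample 3 allow almost any share. A γ variable gene was found in 17, 33, 5 and 28 cells, a δ variable gene in 13, 20, 15 and 35, and both in 6, 3, 4 and 15, so most receptors were not read. Of the 18 cells with a Tcrg-V6 UMI, 12 also had a Trdv4 UMI. Of the 49 cells with a Trgv2 UMI, 9 did. By sample, the counts were 3 of 3, 2 of 2, 3 of 4 and 4 of 9 for Tcrg-V6. For Trgv2 they were 2 of 10, 1 of 27, 0 of 1 and 6 of 11. The pooled counts thus mix unlike samples, and in sample 4 the share was higher for Trgv2 (54.5%) than for Tcrg-V6 (44.4%).

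γδ T cells made up 0.401% (0.291% to 0.537%) of filtered cells in sample 1, 1.14% (0.968% to 1.34%) in sample 2, 0.260% (0.174% to 0.373%) in sample 3 and 0.856% (0.667% to 1.08%) in sample 4. In the order of the samples, 3 and 1 overlapped in their intervals, as did 4 and 2, while 1 and 4 did not. Of the cells that entered the γδ, CD8 or CD4 gate, 19.6%, 32.5%, 11.5% and 21.6% were γδ T cells. These shares depend on the bead selection and on how many cells reached the UMI minimums of the rule.

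**Figure D1:**
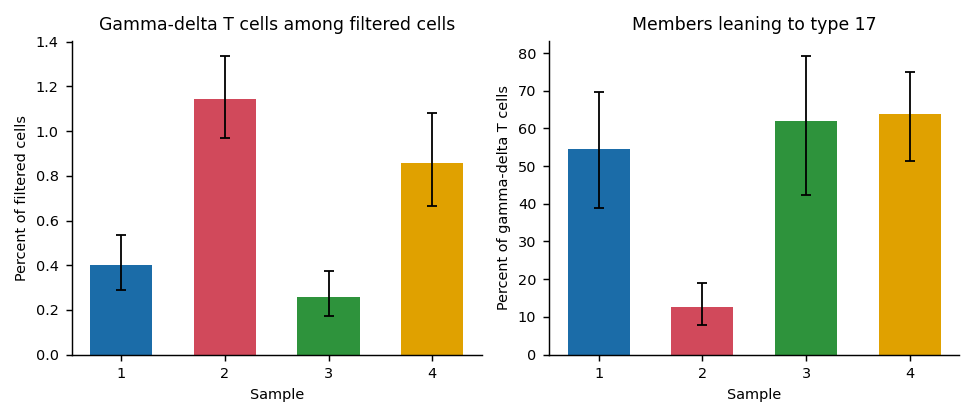
Left, γδ T cells as percent of filtered cells in each sample; right, percent of the γδ T cells with more UMIs of the type 17 list than of the cytotoxic list after thinning to 1000 UMIs. Bars are the shares and error bars the exact binomial 95% intervals over cells. Sample 2 has the highest share of γδ T cells, 1.14%, and the lowest share on the type 17 side, 12.6%.

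The type 17 list holds 18 genes of the IL-17 program, and its summed level was 8075, 2531, 5150 and 6664 CPM in samples 1 to 4. It was lowest in sample 2, whose interval of 2435 to 2629 CPM lay below those of the others. All 18 genes were detected in samples 1, 2 and 4, and 15 in sample 3. Detection alone did not set the members apart, with 17, 17, 18 and 17 of the genes detected in CD4 T cells. In CD8 T cells 10, 11, 9 and 10 were detected, and in B cells 18, 18, 11 and 14. In the members, Rora, which encodes a nuclear receptor of the IL-17 program, held the most UMIs of the list in every sample, at 2474, 1166, 2270.3 and 2824 CPM.

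Il17a (ENSMUSG00000025929, chr1:20730905-20734496, + strand), the cytokine itself, was measured at 1531 (1417 to 1650.2), 280.0 (249 to 314), 402 (329 to 488) and 449 (399 to 504) CPM. Sample 1 was highest and sample 2 lowest, while the intervals of samples 3 and 4 overlapped. Single cells weighed heavily on these levels: 1 cell held 37.2% of the Il17a UMIs of sample 1 and 1 cell held 70.9% of those of sample 3. The other cells of sample 3 held too few to put it above sample 2, so that order of levels rests on 1 cell. An Il17a UMI was found in 47.7%, 10.6%, 41.4% and 49.3% of members, and in 31.8%, 6.62%, 6.90% and 23.2% after thinning. In B cells it was found in 0.709%, 0.429%, 0% and 0.755% before thinning, so all 4 shares stood above that of free RNA. Il17f, the related cytokine, was at 307, 6.64, 0 and 14 CPM, and the 3 counts taken as the floor for a gene at 0 equal 11.7 CPM in sample 3. All 16 cells with an Il17f UMI also had an Il17a UMI. Il22, a cytokine that acts on the epithelium, had 26, 2, 0 and 1 UMIs, 57.7% of those of sample 1 in 1 cell.

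The receptors of the cytokines that drive this program were measured as well. Il23r (ENSMUSG00000049093, chr6:67422932-67491855, - strand), the receptor subunit specific for IL-23, was at 905 (819 to 998), 242 (213 to 274), 461 (382 to 552) and 783 (716 to 854) CPM and was found in 59.1%, 11.9%, 65.5% and 68.1% of members. Il1r1, the IL-1 receptor, was at 296 (247 to 351), 64.5 (50.1 to 81.8), 262 (203 to 332) and 354 (309.7 to 403) CPM. For both genes the interval of sample 2 lay below those of the other samples. Cd163l1, which encodes the scavenger receptor SCART1 known from IL-17-producing γδ T cells, was at 585 (516 to 660.4), 79.7 (63.6 to 98.7), 340.0 (272 to 419) and 500.2 (447 to 558) CPM, again lowest in sample 2. 5830411N06Rik, which encodes the related SCART2, was at 167, 24.7, 15.6 and 7.77 CPM and was highest in sample 1.

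Among the regulators, Zbtb16, which encodes PLZF, a factor of innate-like T cells, was at 673, 367, 578 and 739 CPM. Maf, which encodes c-MAF, a factor needed for IL-17-producing γδ T cells, was at 251, 50.3, 234 and 329 CPM. Blk, a Src-family kinase of B cells and of these γδ T cells, was at 352, 75.9, 215 and 174 CPM. The lowest level of each was in sample 2. Sox13, a γδ lineage factor, was at 11.3, 3.80, 39.1 and 43.5 CPM.

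The cytotoxic and type 1 list showed another order. Its 20 genes summed to 5736, 18893, 3150 and 4702 CPM, highest in sample 2 and lowest in sample 3, with no overlap between any pair of the 4 intervals. Sample 2 was highest in the αβ gates too, at 3657, 14173, 9249 and 9385 CPM in CD8 T cells and 2608, 4285, 2004 and 2542 CPM in CD4 T cells. Ccl5, a chemokine of cytotoxic cells, was at 1293 (1189.7 to 1404), 8162 (7991 to 8337), 715 (615 to 827) and 974 (899 to 1053) CPM and was found in 47.7%, 93.4%, 34.5% and 34.8% of members, against 8.36%, 29.5%, 13.4% and 9.43% of B cells. Gzma (ENSMUSG00000023132, chr13:113093825-113100981, - strand), which encodes granzyme A, was at 1147 (1049 to 1251), 6075 (5927 to 6226), 31.3 (13.5 to 61.6) and 1423 (1332 to 1518) CPM. The Gzma level of sample 2 was above every other sample and that of sample 3, with 8 UMIs of which 87.5% were in 1 cell, was below every other. A Gzma UMI was found in 18.2%, 65.6%, 6.90% and 26.1% of members, 13.6%, 58.9%, 3.45% and 17.4% after thinning and 1.98%, 16.1%, 3.83% and 3.77% of B cells. Free Gzma RNA was thus most frequent in sample 2 as well, and the share of members there stood well above it.

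Gzmb, which encodes granzyme B, was at 454, 1073, 184 and 196 CPM. Nkg7, a protein of cytotoxic granules, was at 372, 743, 86.0 and 115 CPM, and Klrd1, which encodes the NK receptor chain CD94, at 135, 539, 54.7 and 115 CPM. All 3 genes were highest in sample 2. Other members of the list did not follow that order. Il2rb, a receptor chain for IL-2 and IL-15, was at 795, 705, 668 and 784 CPM, Klrk1, which encodes the activating receptor NKG2D, at 368, 269, 418 and 359 CPM, and Tbx21, which encodes T-bet, at 81.3, 87.3, 129 and 118 CPM. Ifng, the type 1 cytokine, was at 370.2, 74.0, 27.4 and 20.2 CPM, but 1 cell held 90.9% of the Ifng UMIs of sample 1. Perforin, encoded by Prf1, gave 13, 37, 4 and 10 UMIs. Of the Ccl4 UMIs of sample 3, 84.1% were in 1 cell.

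Genes of intraepithelial and tissue-resident T cells were detected throughout, with all 17 list genes found in each of the 4 samples. All 17 were also detected in the CD8 T and CD4 T cells of each sample, and 17, 17, 16 and 16 in B cells. Their detection is thus no trait of the members. The summed level was 5980, 8868, 4689 and 5551 CPM in members. It was 2619, 5261, 2254 and 3180 CPM in CD8 T cells and 2182, 3294, 1965 and 2523 CPM in CD4 T cells. All 3 gates were highest in sample 2 and lowest in sample 3. Cd69, which holds T cells in tissue, was at 695, 673, 590.1 and 699 CPM and was found in 88.4% to 93.1% of members. Rgs1, a brake on chemokine receptors, was at 1573, 1652, 1930.4 and 2024 CPM, a narrow range. Cd8a, the CD8α chain, was at 49.7 (31.1 to 75.2), 319.9 (287 to 356), 43.0 (21.5 to 76.9) and 38.8 (25.1 to 57.3) CPM and was found in 13.6%, 61.6%, 13.8% and 13.0% of members. Sample 2 had a Cd8a level above the intervals of the other samples, which overlapped each other. Cd7, a surface protein of intraepithelial lymphocytes, was at 345, 879.9, 113 and 163 CPM, Itga1, the collagen-binding integrin α1, at 97.1, 339.8, 39.1 and 97.9 CPM, and Itgae, the αE integrin that binds epithelial E-cadherin, at 92.6, 212, 50.8 and 109 CPM. All 3 were highest in sample 2 and lowest in sample 3. Cxcr6, a chemokine receptor of resident T cells, ran the other way at 479, 131, 359.5 and 382 CPM, lowest in sample 2.

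**Figure D2:**
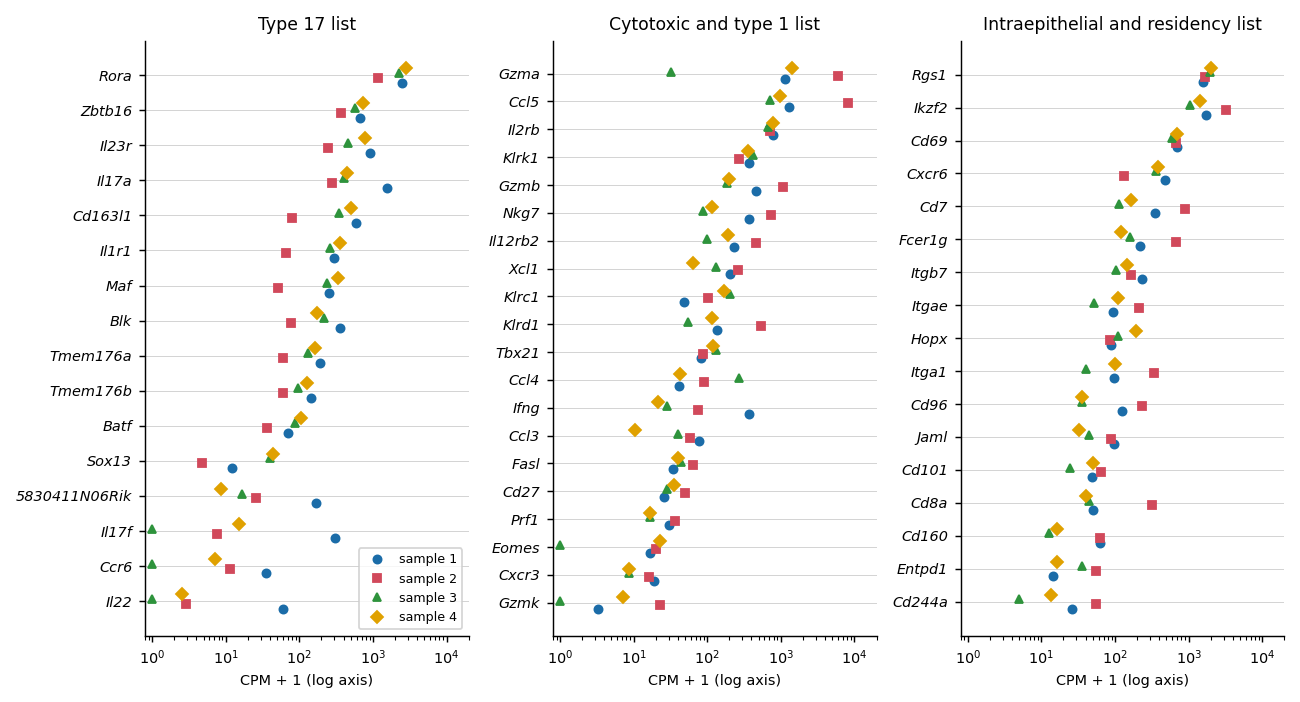
CPM + 1 on a log axis for genes of the type 17 (16 genes), cytotoxic and type 1, and intraepithelial and residency lists, each with at least 20 UMIs over all γδ T cells, 1 symbol per sample, with 0 UMIs drawn at 1. Sample 2 sits lowest for Il23r (242 CPM) and Cd163l1 (79.7 CPM) and highest for Gzma (6075 CPM), Ccl5 (8162 CPM) and Cd7 (880 CPM).

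To see whether these programs lay in the same cells, each member was thinned to 1000 UMIs and its UMIs of the type 17 list were set against those of the cytotoxic list. Members with more type 17 UMIs were 24 of 44, 19 of 151, 18 of 29 and 44 of 69, or 54.5% (38.8% to 69.6%), 12.6% (7.75% to 19.0%), 62.1% (42.3% to 79.3%) and 63.8% (51.3% to 75.0%). Members with more cytotoxic UMIs were 19, 127, 10 and 22, and 1, 5, 1 and 3 cells were tied. Sample 2 had the lowest share on the type 17 side, with an interval below those of the other 3, which overlapped. The split is a range on 2 scores and not a pair of cell types. Cells within 1 UMI of an even count numbered 6, 8, 4 and 5. The same count put 13.0%, 3.45%, 1.37% and 4.40% of CD8 T cells and 33.3%, 33.9%, 48.0% and 50.6% of CD4 T cells on the type 17 side. Before thinning, Rora held 244 of 296, 917 of 1194, 540 of 739 and 693 of 790 UMIs of the list in CD8 T cells. In CD4 T cells it held 1259 of 2083, 1393 of 2640, 2398 of 4388 and 2669 of 5215, and in members 1096 of 3577, 1228 of 2666, 581 of 1318 and 1818 of 4290. The shares of the αβ gates thus rest largely on 1 gene and do not count IL-17-producing cells.

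**Figure D3:**
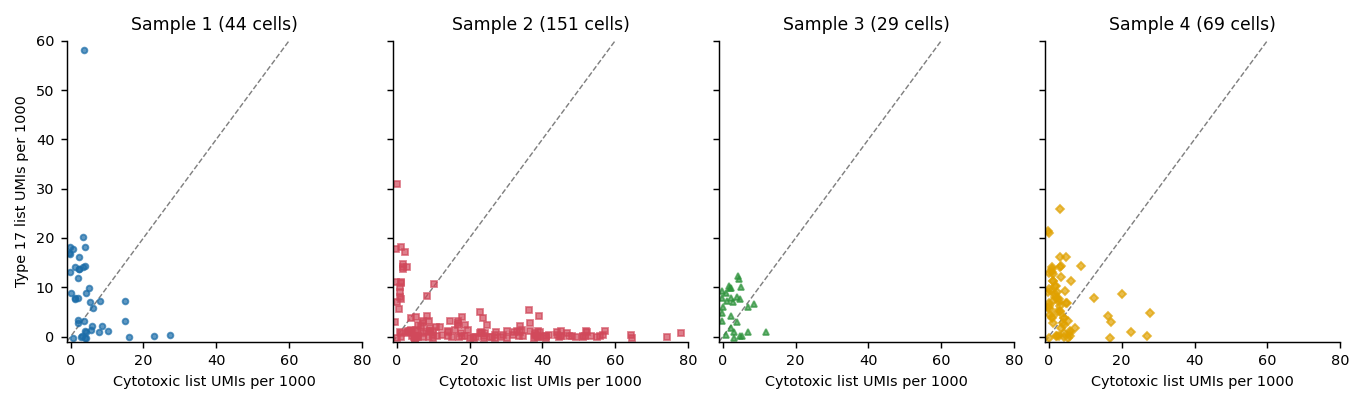
Each point is a γδ T cell, with its UMIs of the cytotoxic list (x axis) and of the type 17 list (y axis) per 1000 UMIs, 1 panel per sample, with a small random offset so that points do not hide each other; the dashed line marks equal values. Most cells lie along one axis or the other, with the cells of sample 2 spread along the cytotoxic axis.

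Cells that held UMIs of 2 genes were also counted, without a score. Of the 83 cells with an Il17a UMI, 64 also had Cd163l1 and 44 had Trdv4, while 3 had Cd8a and 12 had Gzma. Of those 12, 9 were in sample 4, where Gzma was found in 26.5% of the cells with Il17a and in 26.1% of all members, so these genes were not separated there. By sample, 0 of 21, 1 of 16, 0 of 12 and 2 of 34 cells with Il17a had Cd8a, which 6 of 44, 93 of 151, 4 of 29 and 9 of 69 members had. The pooled counts thus mix samples that differ in both genes. Of the 127 cells with a Gzma UMI, 88 also had Cd8a, 82 of them in sample 2. Of the 70 cells with a Trdv4 UMI, 3 had Cd8a, or 0 of 13, 2 of 13, 0 of 14 and 1 of 30 by sample. Sample 2 held 93 of the 112 cells with Cd8a but 13 of the 70 with Trdv4, so this pooled count mixes unlike samples too. Of the 83 cells with Il17a, 27 had Areg and 4 had Ifng. A missing UMI does not show a missing transcript, and cells of higher depth enter more of these counts.

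Genes outside both lists were then compared between the sides within each sample. A gene was counted for a side if its exact Poisson intervals did not overlap in at least 3 samples in that direction and in 0 in the other. Of 8174 genes with at least 20 UMIs in the members, 169 (2.07%) were counted for the type 17 side and 140 (1.71%) for the cytotoxic side. Of 124 genes of the other lists that met that minimum, 13 were counted for the type 17 side and 14 for the cytotoxic side. The sides were cut from the cells' own counts, so these figures describe them and are not a test. Median UMIs per cell on the type 17 side were 8585, 6731, 6195.5 and 6873.5, against 9027, 5787, 8677 and 8835 on the cytotoxic side.

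Genes counted for the type 17 side came from several lists, among them 3 of 14 cytokine receptor genes, 3 of 12 checkpoint and costimulation genes and 2 of 17 intraepithelial and residency genes. Icos, a costimulatory receptor, was at 886, 1041, 1011 and 941 CPM there against 309.8, 65.0, 193 and 234 CPM on the cytotoxic side. Il7r, the receptor for the survival cytokine IL-7, was at 649, 490.0, 421 and 590.2 CPM against 121, 36.0, 129 and 287 CPM. Areg, which encodes amphiregulin, a growth factor for epithelial repair, was at 376, 245, 253 and 509 CPM against 179, 5.80, 129 and 92.7 CPM. In each of these genes the type 17 side was the higher in all 4 samples. Few cells stood behind the Areg level of the cytotoxic side, with 1, 5, 2 and 2 cells holding its 37, 5, 12 and 21 UMIs. Cxcr6, Rgs1, Ccr2, Il2ra, Il18r1, Ctla4, Havcr2, which encodes TIM-3, Cd247, the CD3ζ chain, Junb and Atf3 were counted for the same side. Junb and Atf3 are transcription factors from the list of stress and dissociation genes. Some markers of other cells also differed between the sides. S100a8, a neutrophil gene, was at 506, 74.9, 76.6 and 282 CPM on the type 17 side against 140, 80.0, 354 and 88.3 CPM. Dcn, a fibroblast gene, was at 277 CPM there in sample 4, with 105 UMIs in 3 cells, against 0. Of 7 myeloid and 4 stromal and endothelial genes tested, 0 were counted for this side. The part of these markers in the difference was not tested.

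For the cytotoxic side, 5 of 17 intraepithelial and residency genes, 1 of 14 cytokine receptor genes and 2 of 12 checkpoint and costimulation genes were counted. Cd7 was at 542, 1038, 279 and 406 CPM there against 164, 54.4, 23.0 and 18.4 CPM on the type 17 side, and Cd8a at 92.0, 384, 118 and 83.9 CPM against 13.0, 13.6, 0 and 13.2 CPM. Kit, the stem cell factor receptor, was at 194, 402, 150.3 and 128 CPM against 86.5, 225, 30.7 and 58.0 CPM. The cytotoxic side was the higher of the sides in all 4 samples for these 3 genes, with overlapping intervals for Kit in sample 4. Few cells stood behind some of these levels. Cd8a was found in 4, 89, 4 and 7 cells of the cytotoxic side. Kit was found in 10, 92, 3 and 5 cells there against 5, 7, 3 and 5 on the type 17 side. Ikzf2, which encodes the factor Helios, Itga1, the signalling chains Fcer1g and Tyrobp, Itga4, Ifngr1, Cd28, Cd2, the receptor-proximal kinase Lck, Ptprc, which encodes CD45, and Klre1 were counted for it too. The αβ genes were compared beside these. Trac was at 77.5, 125, 53.7 and 83.9 CPM on the cytotoxic side against 56.2, 68.1, 30.7 and 29.0 CPM on the type 17 side. It was higher on the cytotoxic side in all 4 samples with overlapping intervals, and Cd8b1 was found in 9 cells there against 1. Trbc1 was at 431, 684, 354 and 424 CPM against 359, 293, 429 and 348 CPM, with intervals apart in sample 2. Trbc2 was at 891, 593, 311 and 331 CPM against 463, 592, 337 and 324 CPM, with intervals apart in sample 1. In sample 3 both β constant genes were lower on the cytotoxic side. The part of the αβ genes in the difference between the sides was not tested. Trdc, a gene of the rule, was at 528, 563, 472 and 561 CPM on the cytotoxic side against 1116, 898, 835 and 1025 CPM, with intervals apart in all 4 samples. Tcrg-C1 was at 160, 202, 129 and 203 CPM against 190, 238, 429 and 393 CPM, apart in samples 3 and 4. Tcrg-C2 went the other way, at 106, 76.6, 43.0 and 53.0 CPM against 56.2, 54.4, 23.0 and 52.7 CPM. The intervals of Tcrg-C2 and of Tcrg-C4 overlapped in each sample. Trdv4, the δ variable segment shown above, was at 95.1, 116, 146 and 126 CPM on the type 17 side against 53.2, 2.32, 53.7 and 48.6 CPM.

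**Figure D4:**
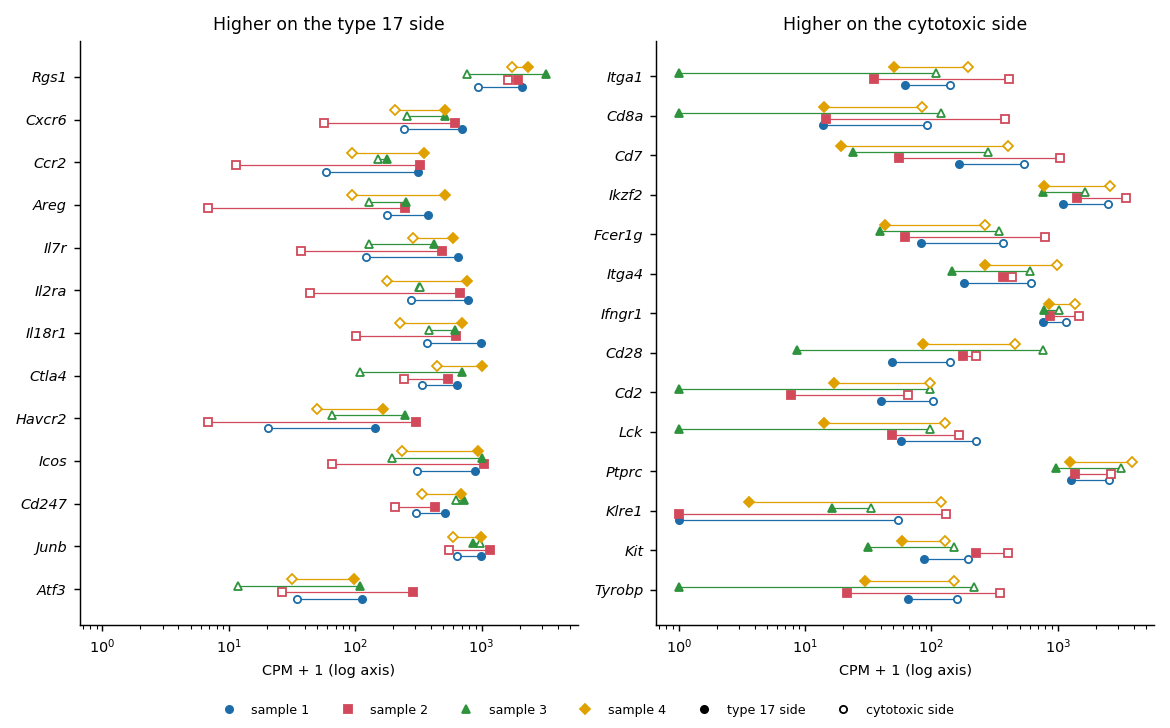
Levels (CPM + 1, log axis) of the 13 list genes counted for the type 17 side (left) and the 14 counted for the cytotoxic side (right), with filled symbols for the type 17 side, open symbols for the cytotoxic side and a line joining the pair within each sample. The lines of sample 2 are among the longest at left, as for Areg and Icos; a symbol at 1 stands for 0 UMIs.

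γδ T cells were next set against the CD8 T cells (54, 145, 73 and 91) and CD4 T cells (126, 168, 150 and 160) of the same samples. A gene was called if log2 of the ratio of CPM + 10 was at least 1 in size in the same direction in each of the 4 samples, among genes with at least 20 UMIs in all. With mixtures of mice whose genotype is not given, this is a description, and 4 samples could not go below an exact two-sided p of 0.125 in any case. The γδ values enter both comparisons, so agreement between them supports nothing. Against CD8 T cells, 66 of 10032 genes (0.658%) were higher and 21 (0.209%) lower. Against CD4 T cells, 76 of 10873 genes (0.699%) were higher and 42 (0.386%) lower. The median log2 ratio over all genes was -0.01 in both. Sample 2 limited these counts: without it, 194 genes were higher and 43 lower than in CD8 T cells, and 156 higher and 64 lower than in CD4 T cells, with 1 sample fewer to meet the rule. Without sample 1, 38 genes were lower than in CD8 T cells.

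Type 17 genes led the difference from CD8 T cells. Of 17 list genes tested, 6 were higher (Blk, Cd163l1, Il17a, Il1r1, Il23r and Zbtb16) and 0 lower, with a median log2 ratio of 2.24. Il23r stood at 0, 35.7, 0 and 0 CPM in CD8 T cells and Il17a at 0, 20.5, 0 and 0 CPM, levels far under those of the members. Where CD8 T cells are at 0 the size of the ratio is set by the 10 CPM added and is no measure of fold. Plcb4, a phospholipase C, and Ece1, endothelin converting enzyme, were the other genes among the 5 with the largest median ratios, at log2 5.43, 2.26, 4.23 and 5.17 and 5.05, 1.47, 4.45 and 4.86. Each of these 5 genes was nearest to the CD8 T cells in sample 2. Of 20 cytotoxic and type 1 genes, 0 were higher than in CD8 T cells and 1 was lower, Gzmk, which encodes granzyme K, at a median log2 ratio of -0.44 for the list. The summed cytotoxic level was 3657, 14173, 9249 and 9385 CPM in CD8 T cells, so the members were above them in samples 1 and 2 and below them in samples 3 and 4.

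Against CD4 T cells, 4 of 18 type 17 genes were higher (Blk, Cd163l1, Il23r and Zbtb16), at a median log2 ratio of 1.40. Il17a was not called, because its log2 ratio was 5.30, 0.51, 3.14 and 1.17, and CD4 T cells also held it at 29.2, 193, 36.9 and 194 CPM. Cd163l1 had log2 ratios of 5.76, 3.04, 4.56 and 4.83 and Zbtb16 of 5.54, 3.15, 4.42 and 4.38. Abi3bp, an extracellular matrix binding protein, was at log2 4.48, 2.63, 3.84 and 4.81, and Mcc at 3.86, 1.67, 4.59 and 4.35. Of 17 intraepithelial and residency genes, 6 were higher (Cd7, Cd8a, Fcer1g, Ikzf2, Itgae and Jaml), at a median log2 ratio of 1.16, where against CD8 T cells 1 was higher (Rgs1) at 0.20. The NK receptor genes Klrd1 and Klrk1 of the cytotoxic list and Klre1 of the NK and innate lymphoid list were higher as well.

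**Figure D5:**
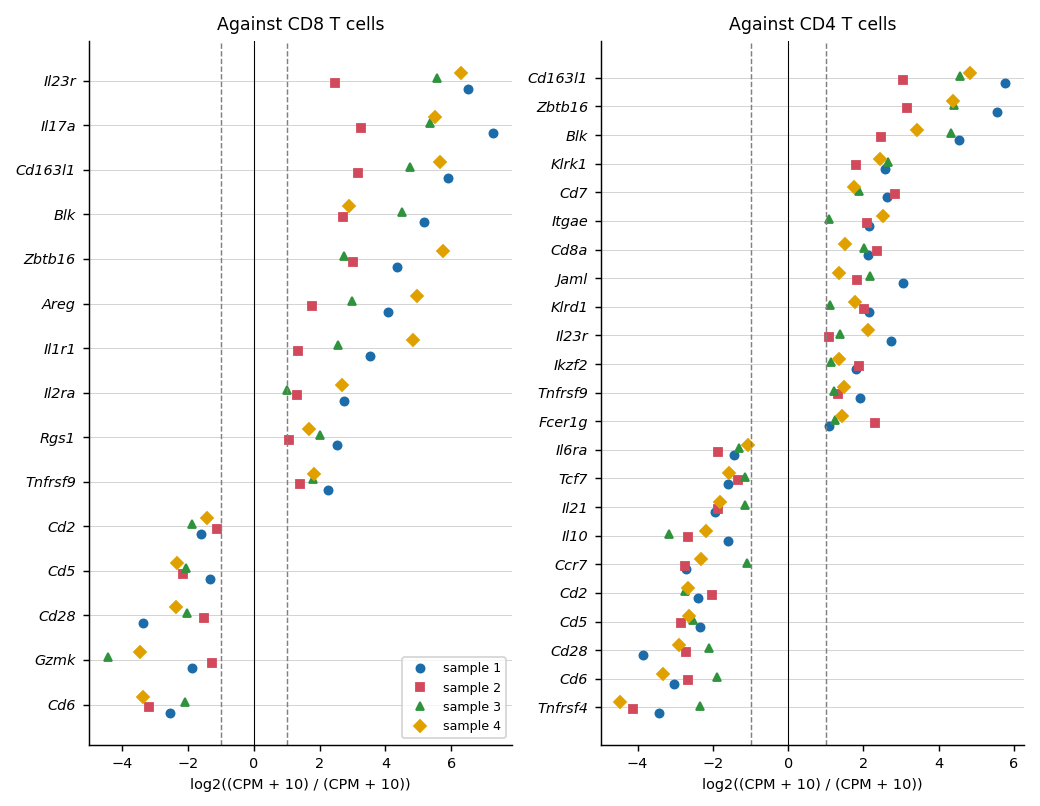
log2 of the ratio of CPM + 10 for the list genes called against CD8 T cells (left) and CD4 T cells (right), 1 symbol per sample; dashed lines mark a ratio of 2-fold either way. Il23r and Il17a lie furthest right against CD8 T cells, and the costimulation genes Cd28, Cd5, Cd6 and Cd2 lie left of the line in both panels.

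Some costimulation genes were lower in γδ T cells than in both αβ gates. Of 13 checkpoint and costimulation genes tested, Cd2, Cd28, Cd5 and Cd6 were lower than in CD8 T cells and than in CD4 T cells, and Tnfrsf4, which encodes OX40, was lower than in CD4 T cells too, with its 18 UMIs of sample 3 all in 1 cell. Cd6, an adhesion receptor of T cells, was at 33.9, 36.1, 109 and 49.7 CPM in members, with log2 ratios to CD8 T cells of -2.55, -3.20, -2.08 and -3.38. Tnfrsf9, which encodes 4-1BB, was the exception and higher in both, at 451, 388, 641 and 631 CPM. Cd40lg, the ligand by which helper T cells license B cells, had 4, 1, 0 and 3 UMIs and Tnfsf8, which encodes CD30 ligand, 9, 26, 2 and 7, and both were lower than in CD4 T cells. Gm8369 and Ms4a4b were lower than in CD8 T cells, Gm8369 and Inpp4b lower than in CD4 T cells, and BE692007 lower than in CD8 T cells. The median log2 ratio of the list was -0.14 against CD8 T cells and -1.09 against CD4 T cells.

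The 18 repair and other cytokine genes summed to 749, 316, 715 and 783 CPM in members, 251, 243, 309 and 259 CPM in CD8 T cells and 371, 558, 629 and 791 CPM in CD4 T cells. The members were above the CD8 T cells in every sample, and above the CD4 T cells in samples 1 and 3. In sample 3 the intervals of members (615 to 827 CPM) and CD4 T cells (591 to 668 CPM) overlapped. Areg was at 279.9 (233 to 334), 38.9 (27.9 to 52.8), 176 (128 to 235) and 345 (301 to 393) CPM and was found in 18.2%, 7.95%, 24.1% and 29.0% of members, lowest in sample 2, and it was higher than in CD8 T cells, where it was at 7.03, 4.32, 13.4 and 1.33 CPM. Tgfb1, which encodes transforming growth factor β, was at 154, 178, 242 and 168 CPM. Il21 had 0 UMIs in all samples, Il10 had 1, 1, 0 and 4, and both were lower than in CD4 T cells. Il4, Il5, Il13 and Il2 had 0 or 1 UMI in each sample. Il2ra, the high-affinity IL-2 receptor chain, was at 553, 138, 289 and 517 CPM and higher than in CD8 T cells, and Il6ra was lower than in CD4 T cells. Ccr7 and Tcf7, genes of circulating T cells, were lower than in CD4 T cells, at 51.9, 32.3, 102 and 28.0 and 129, 130, 109 and 82.3 CPM.

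Receptors for other signals were detected in each sample. Il18r1, the IL-18 receptor, was at 704, 178, 469 and 513 CPM and was found in 65.9%, 29.1%, 75.9% and 75.4% of members. Il7r was at 399.6, 102, 269.6 and 482 CPM. Both were lowest in sample 2. Ifngr1, the interferon γ receptor, held the most UMIs of the 15 cytokine receptor genes in every sample. Among homing genes, Ccr2, a receptor that draws cells to inflamed tissue, was at 199, 54.1, 145 and 250.1 CPM, and Gpr183, a receptor for oxysterols, at 357, 125, 231 and 455 CPM. Ccr9, the small intestinal homing receptor, had 4, 54, 26 and 4 UMIs, and 96.2% of those of sample 3 were in 1 cell.

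Inhibitory and costimulatory receptors were detected in each sample. Ctla4 was at 510.2, 274, 395 and 777 CPM, Icos at 628, 203, 598 and 666 CPM and Pdcd1, which encodes PD-1, at 45.1, 28.5, 93.8 and 119.6 CPM. All 3 were lowest in sample 2. The 10 genes of T cell receptor signalling were all detected in every sample and summed to 5452, 5763, 5236 and 5605 CPM, in proportion the narrowest range of the lists named here, with 0 of 10 called against either αβ gate. The 11 NK and innate lymphoid genes summed to 359, 675, 199 and 438 CPM. Kit held the most UMIs of them in samples 1 to 3 and Gata3, a factor of type 2 lymphocytes, in sample 4.

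The AhR pathway was read because the receptor is the subject of the study. Ahr itself was at 102 (74.1 to 136), 163 (139.8 to 189.6), 125 (85.5 to 177) and 216 (182 to 255) CPM and was found in 31.8%, 47.0%, 51.7% and 69.6% of members, and no genotype was drawn from these counts. Arnt, its partner in DNA binding, was at 154, 207, 129 and 180.2 CPM, and Hsp90ab1, a chaperone that holds it in the cytoplasm, at 898, 782, 606 and 541 CPM. Of its target genes, Tiparp was at 275, 287, 93.8 and 74.6 CPM and Ahrr had 8, 38, 0 and 0 UMIs, where the floor of 3 counts equals 11.7 and 4.66 CPM in samples 3 and 4. Cyp1a1 and Cyp1b1 had 0 UMIs in all 4 samples, and Nqo1 had 1, 2, 0 and 1. Of the 9 list genes, 6 were tested against each αβ gate and 0 were called in either direction.

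Markers of other cells were counted in the members. The B and plasma cell list summed to 158, 1039, 164 and 82.3 CPM, with Igkc, an immunoglobulin light chain gene, the most abundant. In sample 2 an Igkc UMI was found in 98.7% of members, in 96.6% of CD8 T cells and in 97.0% of CD4 T cells. The myeloid list summed to 986, 645, 594 and 586 CPM, with S100a8, a neutrophil gene, the most abundant in samples 1, 3 and 4 and Tyrobp in sample 2. All 3 mast cell genes were at 0 in all samples. The stromal and endothelial list summed to 266, 96.8, 219 and 682 CPM, and in sample 4 its top gene Dcn, of fibroblasts, was found in 5.80% of members at 281 CPM. The epithelial list summed to 11.3, 53.2, 11.7 and 24.9 CPM. Proliferation genes summed to 485, 366, 254 and 314 CPM, with 0 of 10 called and a median log2 ratio of -1.03 against CD8 T cells and -0.91 against CD4 T cells. Stress and dissociation genes summed to 2393, 2718, 3298 and 3665 CPM, with 0 of 10 called against either gate. The part that these transcripts play in the levels above was not tested.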

How the data were processed

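Single-cell RNA sequencing libraries of 4 samples were used. Deposited by the authors were raw counts of UMIs for 32285 genes in each cell, not normalized, with 113806334, 135516016, 101579112 and 72509408 UMIs in 45229 cells. The matrix header names Cell Ranger 7.0.1, while the submitters' processing notes name Cell Ranger 5.0.0, STAR, Seurat and the mm10 build. Whether intronic reads were counted, the 10x chemistry and any doublet step are not given in the sources used here. Positions and sequences came from GENCODE M21 on GRCm38 (mm10).

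All samples have the group unassigned, since their labels give no genotype and file names were not used. UMIs were summed over the members of each sample and scaled to CPM, and cells gave no p-value. B cells (at least 3 UMIs of Cd79a and Ms4a1, 0 of CD3 and Trdc) served as the reference for free RNA. CD8 T cells had at least 1 Cd8b1 UMI and CD4 T cells at least 1 Cd4 UMI, each with at least 3 CD3 UMIs and 0 of Trdc. Thinning drew 1000 UMIs per cell. Doublets were limited by the lineage genes at 0. As an alternative, cells with the highest Scrublet scores were left out, 0.8% for every 1000 cells of a library. Other alternatives changed the filters on cells and genes, the Trdc minimum, αβ transcripts, the pseudocount, the thinning and the list members, and left out each sample. The genes named are those of the fixed lists, the γ and δ receptor segments and the 5 genes of largest median ratio in each direction of each comparison. The members and lists were chosen with earlier results of these data known. A gene of the type 17 list is not reported here by itself. Steps were tested on simulated data. Tools were Python 3.11.15, numpy 2.4.6, scipy 1.17.1, pandas 2.3.3, scanpy 1.11.5 and matplotlib 3.10.9.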

Additional observations from a re-analysis of the deposited data

How the results depend on the processing

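Values here are medians over the 4 samples. With at least 500 genes, under 10% mitochondrial UMIs, the highest Scrublet scores removed or at least 3 Trdc UMIs, the share of γδ T cells (0.628%), the list levels, the Il17a share and the share on the type 17 side stayed within the median bounds of the samples' 95% intervals and the counts of genes within 1.5 times those reported. Of 232 gene levels 0, 0, 8 and 7 left those bounds. Excluding members with Trac or Cd8b1 UMIs, an alternative chosen after seeing the data, moved 41 of 232 and gave a share of 0.448%, 6742 CPM for the type 17 list (5907 as reported) and 5456 CPM for the cytotoxic list (5219). Excluding members with Trac, Trbc1, Trbc2 or Cd8b1 UMIs left 1, 3, 2 and 6 cells, a share of 0.0203%, 8251 and 4084 CPM for the lists and a thinned Il17a share of 0% (15% as reported), and gene counts could not be computed. Without thinning the Il17a share was 44.6%. Also chosen after seeing the data, the type 17 list without Rora was at 3360 CPM and the cytotoxic list without Ccl5 and Gzma at 2849 CPM. The share on the type 17 side was 49.7% without Rora and 63.4% without Ccl5 and Gzma (58.3% as reported). Both stayed within the bounds named above, but whether the median share is a majority depends on Rora. A pseudocount of 1 gave 149 genes higher and 60 lower than in CD8 T cells, and 158 and 97 against CD4 T cells. These larger counts follow from the smaller number added to low levels.

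Leaving out each sample in turn gave a share of 0.401% to 0.856%, type 17 levels of 5150 to 6664 CPM, cytotoxic levels of 4702 to 5736 CPM, Il17a shares of 6.90% to 23.2%, shares on the type 17 side of 54.5% to 62.1% and Trgv2 shares of 33.3% to 60%. Against CD8 T cells it gave 75 to 194 genes higher and 27 to 43 lower, and against CD4 T cells 83 to 156 higher and 54 to 64 lower, each highest without sample 2. The γδ, CD8 and CD4 T cells were compared within each sample. Sample 3 rests on 29 members.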
